A study of Mus musculus with 6 samples.

Results

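Cytochrome P450 genes encode haem-containing monooxygenases, and the 98 of them described here are the rows of the kidney count table that are annotated as protein-coding under a symbol made of Cyp and a family number. The table lists 55450 genes. Cyp24a1 and Cyp27b1 were left out of the set by its definition, and membership used no measured value. The study made mice hyperuricemic and followed their kidneys towards chronic kidney disease, and whole-kidney mRNA was sequenced from 3 mice of the day-0 group and 3 mice of the day-21 group, out of 6 mice per group. All were wild-type male C57BL/6J mice bought at 7 weeks of age and acclimatised for 1 week. Each group was killed on its own day, so the day-21 mice were also older than the day-0 mice at sampling. Age and treatment cannot be told apart in this comparison. Day-21 mice were gavaged every day with adenine at 0.16 g/kg together with potassium oxonate at 2.4 g/kg, whereas day-0 mice were the control and are labelled with 20% PEG. The comparison asks which P450 genes differed in mRNA between the kidneys of the 2 groups.

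P450 enzymes bind haem through a conserved cysteine and insert an oxygen atom into their substrate with electrons from a partner protein, which is cytochrome P450 reductase in the endoplasmic reticulum and ferredoxin in mitochondria. In the kidney they act mainly in the proximal tubule, where subfamilies 4A and 2J/2C turn arachidonic acid into a vasoactive hydroxy acid or into epoxides, and where others oxidise steroids, sterols, vitamins and drugs. Many belong to tandem gene clusters whose members are nearly identical in sequence, so a read may not tell them apart.

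The haem-binding stretch is printed for the members that the results turn on, since it is what unites the family. Each line gives 30 coding bases of the GENCODE M21 transcript, 5′ to 3′, with the codon of the haem-binding cysteine in capitals.

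Cyp4b1: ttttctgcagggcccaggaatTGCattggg
Cyp2e1: ttttctgcaggaaagcgcgtgTGTgttgga
Cyp2j5: ttctcaatgggaaaaagagctTGTcttgga
Cyp4a14: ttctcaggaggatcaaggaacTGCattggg
Cyp4a12a: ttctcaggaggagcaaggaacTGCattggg
Cyp4a12b: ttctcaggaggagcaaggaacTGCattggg
Cyp2d9: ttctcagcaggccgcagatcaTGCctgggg
Cyp2d12: ttttcagcaggccgcagatcaTGCctgggg
Cyp4f18: ttctcggctgggcccaggaacTGCatagga
Cyp51: tttggagctgggcgtcatcgtTGTgttgga

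The pattern searched for was found at exactly 1 place in the longest reading frame of 91 of the 98 members. Cyp4a12a and Cyp4a12b were identical over these bases, as were Cyp4a10, Cyp4a31 and Cyp4a32. Cyp2d9, Cyp2d22 and Cyp2d26 also shared 1 sequence.

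Kidney P450 mRNA was lower on day 21. Summed over the 98 members, the level was 7353, 9348 and 10320 CPM (counts scaled to a common library total, with TMM factors) on day 0 and fell to 2836, 2026 and 2525 CPM on day 21. The groups did not overlap, and the mean on day 21 was 0.273 times that on day 0. In raw counts, members made up between 0.65% and 0.915% of all counts on day 0 and between 0.237% and 0.317% on day 21. Of the 98 members, 27 had no count in any mouse and 30 had some counts but too few to be tested. Of the 41 tested, 24 were called lower and 8 were called higher on day 21, by edgeR's quasi-likelihood test with a Benjamini-Hochberg adjusted p under 0.05 and a fold over 1.5. Over all 16592 genes tested the same rule called 35.1%, with 15.5% lower and 19.6% higher. At an unadjusted p under 0.05 there were 35 of the 41 members, and 53.0% of all genes. The median log2 fold change was -1.39 over the 41 members and 0.03 over all genes. Over the 28 members with under 10% of their 50-base words (every run of 50 bases in the transcript) shared with other genes it was -0.57, and 13 of them were called lower. With libraries scaled by size alone, 10 members were called higher and 21 lower, against 5982 and 1338 of all genes (3250 and 2572 with TMM), and the median of all genes rose to 0.42. The 3 day-21 mice all lay below the 3 day-0 mice in 25 members and all above them in 9, beside 26.4% and 30.7% of all genes tested.

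**Figure D1:**
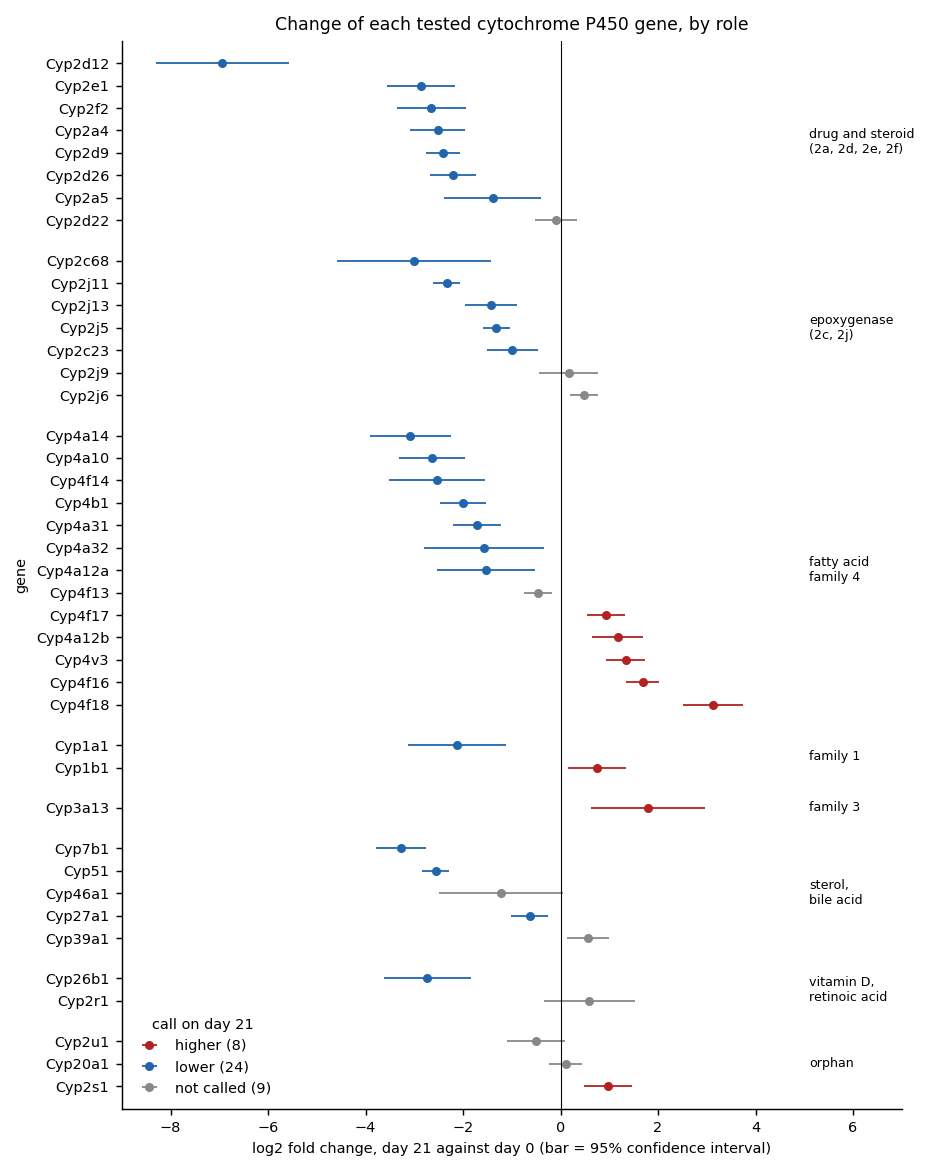
Log2 fold change of the 41 tested P450 genes, day 21 against day 0 (x axis), with 95% confidence intervals as bars, grouped by role (y axis); blue points are the 24 called lower, red the 8 called higher and grey the 9 not called. Cyp2d12 has the lowest value at -6.94 and Cyp4f18 the highest at 3.13, and 5 of the 8 red points belong to family 4.

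Library sizes ran from 10963849 to 14333311 counts. Mice of the same group differed by more than counting noise, with a chi-square per gene from 7.17 to 25.7. Nothing in the labels says more of how the mice or libraries were batched. All 18 proximal tubule markers were called lower, and their summed level ran from 34734 to 47393 CPM on day 0 and from 6850 to 9671 CPM on day 21. The macrophage, T cell, fibroblast and injured tubule lists were called higher in 6 of 6 genes each. In whole kidney, fewer cells of a type and less RNA per cell cannot be told apart. Among the day-0 mice, replicate 1 stood apart in Hmox1, which breaks down haem, with 7480 counts against 702 and 424, and in Krt20, a marker of injured tubule, with 160 counts against 3 and 5. Replicate 3 held the most adipocyte mRNA, with 265 counts of Cfd against 0 and 70. Without day-0 replicate 1, 7 members were called higher and 24 lower.

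To compare levels between genes, CPM were divided by exon length (CPM per kb). On day 0, Cyp4b1 had the highest level at 1047 ± 295 CPM per kb (SD, n = 3), followed by Cyp2e1 at 652 ± 232 and Cyp2j5 at 595 ± 36.4. The range of Cyp2e1 over the mice, 384 to 795 CPM per kb, spanned that of Cyp2j5, 566 to 636, so their order was not settled. Cyp2a4 (235 ± 20.5 CPM per kb) and Cyp4a10 (234 ± 38.0) came next and did not differ beyond their spread. On day 21, Cyp4b1 (262 ± 50.2 CPM per kb) and Cyp2j5 (238 ± 25.5) led and overlapped, with Cyp2e1 at 89.9 ± 30.7.

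**Figure D2:**
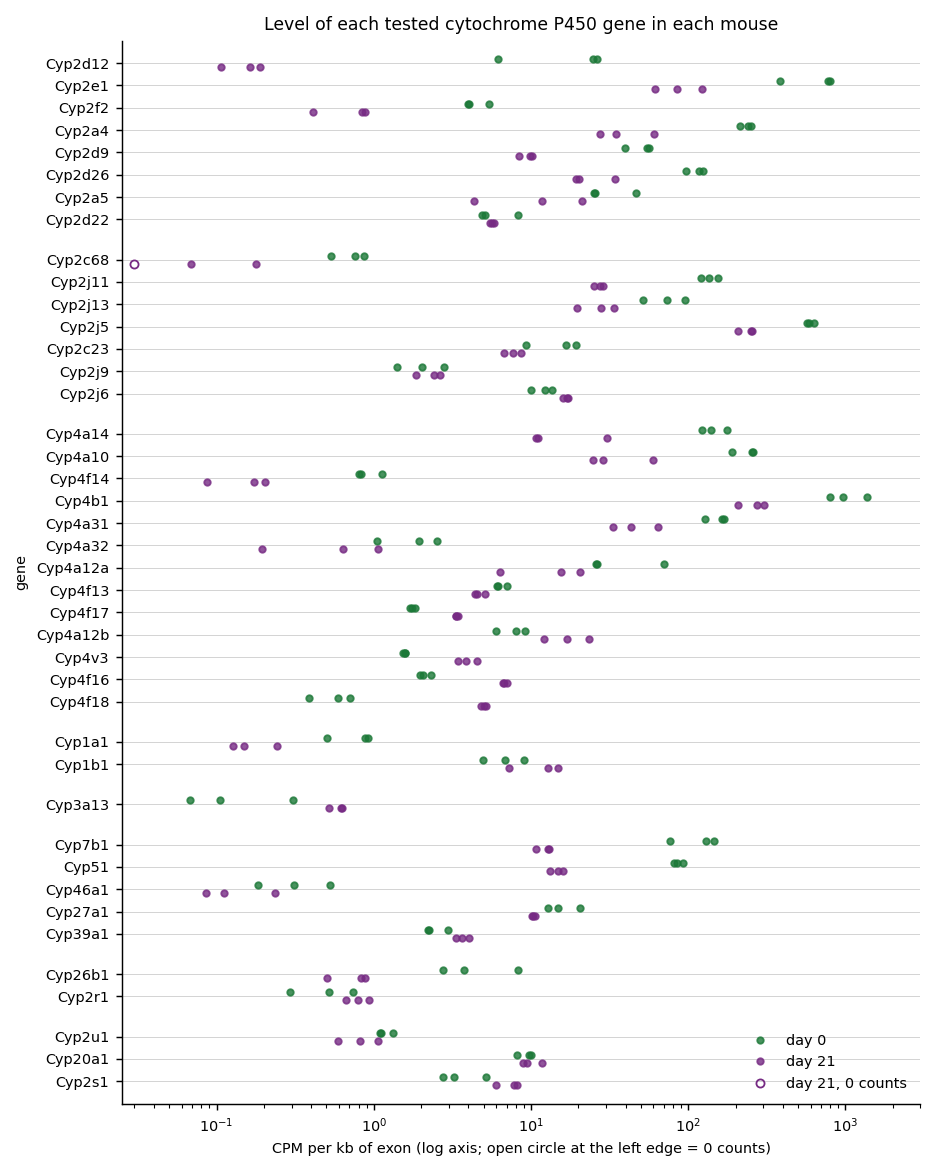
Level of the 41 tested P450 genes (y axis, grouped by role) in CPM per kb of exon on a log axis (x axis), with 1 point per mouse, day 0 in green and day 21 in purple; the open circle at the left edge is a mouse with 0 counts. The purple points of Cyp4b1, Cyp2e1 and Cyp2j5 lie left of the green ones with no overlap, and those of Cyp4f18 and Cyp4v3 lie to the right.

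Among the family 2 enzymes that oxidise drugs and steroids, 7 of the 8 members tested were called lower and none higher. Cyp2e1 (chr7:140763739-140774987, GRCm38, plus strand), which oxidises ethanol and other small molecules, had 8285, 20838 and 16311 counts on day 0 against 3752, 2240 and 3010 on day 21. All day-21 mice were below all day-0 mice, and day-0 replicate 1 was the lowest of its group. The log2 fold change was -2.86 ± 0.31 (SE), with an edgeR adjusted p of 4.98e-05. Without that replicate it was -3.15.

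Cyp2d12 (chr15:82555072-82560403, plus strand) had the largest fall of any member. It had 240, 1234 and 934 counts on day 0 but 9, 7 and 12 counts on day 21. Again day-0 replicate 1 was the lowest of the controls, and the groups stayed far apart. The log2 fold change was -6.94 ± 0.61 (edgeR adjusted p = 1.36e-05), a 123-fold lower mean, and it was -7.38 without day-0 replicate 1. Its neighbour Cyp2d9, a testosterone 16-alpha-hydroxylase that is more abundant in males, had 1045, 1808 and 1408 counts on day 0 against 370, 453 and 363 on day 21. All its day-21 mice were below all its day-0 mice, with a log2 fold change of -2.40 ± 0.16 (edgeR adjusted p = 2.60e-06). Cyp2d26 went from 2238, 2534 and 1687 counts to 511, 1026 and 568, a log2 fold change of -2.20. Cyp2d22, the fourth member of the subfamily that was tested, had 321, 232 and 193 counts on day 0 against 303, 384 and 362 on day 21. Its groups overlapped in CPM and it was not called (log2 fold change -0.10 ± 0.19), with a sign that turned positive when libraries were scaled by size alone (0.29). Within each mouse, Cyp2d12 had 0.23, 0.682 and 0.663 times the counts of Cyp2d9 on day 0 and 0.0243, 0.0155 and 0.0331 times on day 21. A ratio within a mouse does not depend on library scaling, and this one parted the groups (two-sided exact permutation p = 0.1, the smallest that 3 against 3 mice can give). It is among 5 ratios that were chosen after their values were seen, so their p-values only describe them. The 2 genes shared 92.1% of their coding bases, and their sum had a log2 fold change of -3.01 (95% confidence interval -3.53 to -2.49).

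Cyp2a4, a steroid hydroxylase (chr7:26307169-26315088, plus strand), had 3687, 5068 and 4264 counts on day 0 against 1501, 804 and 991 on day 21. The groups were well apart, and the log2 fold change was -2.52 ± 0.25 (edgeR adjusted p = 2.99e-05). Cyp2a5, its close copy, had 527, 637 and 932 counts on day 0 against 620, 151 and 397 on day 21. In CPM all its day-21 mice were below all its day-0 mice, and its log2 fold change was -1.39. It was -2.01 without day-21 replicate 1, and its call was lost without day-0 replicate 3 (-1.06, edgeR adjusted p = 0.0834), without day-21 replicate 3 (-1.35, edgeR adjusted p = 0.0763), with library size alone and with DESeq2. Of the 50-base words in the Cyp2a4 transcript, 38.0% also occur in another gene, and 40.8% for Cyp2a5, so reads could be split between them. The reads of the study were longer than these words, so the share of reads that fit several genes may be smaller. Summed, the pair had a log2 fold change of -2.29 (95% confidence interval -2.94 to -1.64). Cyp2f2, which oxidises aromatic compounds in the airway, was low, at 82, 98 and 106 counts against 24, 14 and 29, and was called lower at -2.66. An antisense gene covers 13.5% of its exon bases, and the strand setting of the counting is not given in the sources used here. Cyp2b10, the usual reporter of the receptor CAR, had 2, 9 and 16 counts against 0, 0 and 1 and was not tested.

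RefSeq promoters (250 bases before to 50 after the start, GRCm38.p6) were given for 29 of the 41 tested members. The letters TATAAA, or TTTATA on the other strand, were sought in the 250 upstream bases. A member was counted if any of its promoters held them. This was so for 9 of the 17 members called lower, 0 of 6 called higher and 0 of 6 not called. The letters were present in 12.4% of the 32851 promoters in the table, counted singly. The shares of members and of promoters are therefore not in the same unit. The matches near the RefSeq start of 4 drug- and steroid-oxidising members are shown with the matched letters in capitals, on the strand of the gene. The windows of Cyp2e1 and Cyp2d9 lay inside the GENCODE span of the gene, and those of Cyp2a4 and Cyp2a5 crossed its edge.

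Cyp2e1, chr7:140763776-140763805: tcaacgacacgtTATAAAatccttgtttct
Cyp2a4, chr7:26307152-26307181: tgtctctggatgTATAAAagcaagctaatt
Cyp2a5, chr7:26835298-26835327: tgtctctggatgTATAAAagcaagctaatt
Cyp2d9, chr15:82452337-82452366: ccctggcactccTTTATAaggtgacaggat

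Cyp2a4 and Cyp2a5 were identical over the 30 bases shown. A match to these letters is a description and was not tested as a binding site.

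The epoxygenase subfamilies, which turn arachidonic acid into epoxides, held 7 tested members, of which 5 were called lower and none higher. Cyp2j5 (chr4:96628773-96664154, minus strand), the main 2J enzyme of mouse kidney, had 13252, 16640 and 14492 counts on day 0 against 8474, 8220 and 9611 on day 21. The mice of each group lay close together and the groups were apart, with a log2 fold change of -1.32 ± 0.12 (edgeR adjusted p = 1.96e-05). Cyp2j11 had the largest fall of its subfamily, from 2614, 3594 and 2242 counts to 781, 810 and 856 (log2 fold change -2.34 ± 0.13). Cyp2j13 went from 2426, 4163 and 4358 counts to 1853, 1543 and 2606, a log2 fold change of -1.44. Cyp2j6, from the same cluster on chromosome 4, had 488, 536 and 350 counts on day 0 against 875, 1027 and 946 on day 21. All its day-21 mice were above all its day-0 mice in CPM, but the log2 fold change of 0.49 ± 0.13 (edgeR adjusted p = 0.0103) was under the 1.5-fold threshold, except with library size alone, where it was called higher at 0.88. The ratio of Cyp2j6 to Cyp2j5 counts was between 0.0242 and 0.0368 on day 0 and between 0.0984 and 0.125 on day 21 (two-sided exact permutation p = 0.1). Cyp2j9 was not called at 0.16 ± 0.27.

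Among the 15 Cyp2c genes, 7 had no count and 2 were tested. Cyp2c23, long named Cyp2c44 and known as a renal epoxygenase, had 362, 505 and 195 counts on day 0 against 263, 243 and 270 on day 21. The day-0 mice differed widely among themselves, and in CPM the lowest of them, replicate 3 at 20.1, was above the highest day-21 mouse at 18.6. The log2 fold change was -0.99 ± 0.24 (edgeR adjusted p = 0.00656). Cyp2c68 was near the limit of detection on day 21, with 15, 16 and 9 counts against 0, 2 and 5. It was called lower (-3.01 ± 0.71, with -4.09 when day-21 replicate 3 was left out), and 43.3% of its 50-base words are shared with other genes.

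Family 4 enzymes hydroxylate fatty acids and eicosanoids at or near their last carbon, and its 13 tested members split, with 7 called lower and 5 higher. Cyp4b1 (chr4:115624725-115647723, minus strand), the most abundant P450 mRNA per length, had 17991, 26594 and 30090 counts on day 0 against 8767, 7830 and 11245 on day 21. Each day-21 mouse was below each day-0 mouse. The log2 fold change was -2.00 ± 0.22 (edgeR adjusted p = 4.53e-05), and it was -1.78 without day-0 replicate 3, the mouse with the highest Cyp4b1 and the most adipocyte mRNA.

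The Cyp4a cluster lies next to Cyp4b1. Cyp4a14, a classical target of the fatty acid receptor PPARA, had 3616, 5602 and 3105 counts on day 0 against 1116, 469 and 472 on day 21, with a log2 fold change of -3.08 ± 0.37 (edgeR adjusted p = 9.30e-05) that was -3.74 without day-21 replicate 1. Cyp4a10, another such target, had 4015, 6638 and 5196 counts on day 0 against 1790, 1010 and 860 on day 21, a log2 fold change of -2.63 ± 0.30. In both genes the groups were well separated, and day-21 replicate 1 was the highest of its group. Cyp4a31 was called lower at -1.71 ± 0.22. Cyp4a32, with at most 47 counts, overlapped between groups and was called lower at -1.57 ± 0.55. That call was lost in 6 of the alternatives, among them those without day-0 replicate 2 (-1.26), day-0 replicate 3 (-1.56), day-21 replicate 2 (-1.13) or day-21 replicate 3 (-1.58). Since Cyp4a10 shares 96.6% of its coding bases with Cyp4a31 and 97.2% with Cyp4a32, the 3 were also summed, which gave a log2 fold change of -2.15 (95% confidence interval -2.71 to -1.60).

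Cyp4a12a and Cyp4a12b, the male-biased hydroxylases that make the vasoconstrictor 20-HETE in mouse kidney, moved apart. Cyp4a12a (chr4:115299046-115332815, plus strand) had 632, 765 and 1654 counts on day 0 against 703, 259 and 617 on day 21. In CPM the gene had no overlap between groups, with day 21 lower. It was called lower at -1.53 ± 0.45 (edgeR adjusted p = 0.0184), a call that was lost without day-0 replicate 3 (-0.91, edgeR adjusted p = 0.0628). Cyp4a12b (chr4:115411624-115439034, plus strand) had 193, 175 and 214 counts on day 0 against 793, 487 and 660 on day 21. All day-21 mice were above all day-0 mice, and it was called higher at 1.17 ± 0.24 (edgeR adjusted p = 0.00257). Cyp4a12b had 0.305, 0.229 and 0.129 times the counts of Cyp4a12a on day 0, and 1.13, 1.88 and 1.07 times on day 21, so the ratio was below 1 in all day-0 mice and above 1 in all day-21 mice (two-sided exact permutation p = 0.1). The coding sequences differ at 23 of 1524 bases, and 48.9% of the 50-base words of Cyp4a12a and 49.4% of those of Cyp4a12b occur in other genes. The stretch from coding base 625 to 684 holds 4 of the differences, which are in capitals.

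Cyp4a12a: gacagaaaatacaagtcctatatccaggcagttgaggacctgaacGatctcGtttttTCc
Cyp4a12b: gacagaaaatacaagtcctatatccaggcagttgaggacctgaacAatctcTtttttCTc

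How the authors assigned reads that fit both genes is not given in the sources used here, so each value is uncertain. Summed, the pair had 825, 940 and 1868 counts on day 0 against 1496, 746 and 1277 on day 21. The sum was not called, with a log2 fold change of -0.63 (95% confidence interval -1.44 to 0.19).

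**Figure D3:**
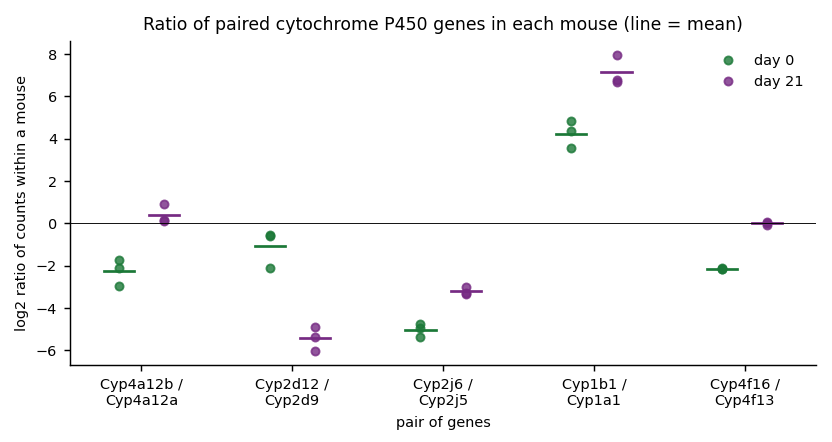
Log2 ratio of the counts of 2 P450 genes within each mouse (y axis) for 5 pairs (x axis), with 1 point per mouse, day 0 in green, day 21 in purple and the group mean as a line. The 5 pairs were chosen after their values were seen. In each pair the 2 groups do not overlap. For Cyp2d12 over Cyp2d9, day-0 replicate 1 lies well below the other day-0 mice. The mean for Cyp4a12b over Cyp4a12a went from -2.26 to 0.39.

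The Cyp4f subfamily, whose enzymes inactivate leukotriene B4 and other eicosanoids, held 3 of the 8 genes called higher. Cyp4f18 (chr8:71988482-72009626, minus strand), the leukotriene hydroxylase of mouse neutrophils and other myeloid cells, had 11, 16 and 7 counts on day 0 against 133, 150 and 158 on day 21. All day-21 mice were far above all day-0 mice, and the log2 fold change of 3.13 ± 0.28 (edgeR adjusted p = 1.35e-05) was the largest rise in the family. The 6 macrophage markers rose too, by a median of 2.98 on the log2 scale, from a summed 144 to 184 CPM on day 0 to 764 to 1056 CPM on day 21. Their part in the rise of Cyp4f18 was not tested. Exons of Zfp961 on the other strand cover 9.76% of its exon bases. Cyp4f16 had 63, 86 and 59 counts against 293, 365 and 332 and was called higher at 1.68 ± 0.15, with 26.5% of its 50-base words shared with other genes, mainly Cyp4f37, which had no count in any mouse. Cyp4f17 was called higher at 0.93 ± 0.18. Cyp4f13, the highest of the subfamily on day 0 per length, had 271, 380 and 266 counts on day 0 against 277, 380 and 329 on day 21. Its groups did not overlap in CPM, yet at -0.46 ± 0.13 it was under the fold threshold. Counts of Cyp4f16 were between 0.222 and 0.233 times those of Cyp4f13 on day 0 and between 0.961 and 1.06 times on day 21, with the groups apart (two-sided exact permutation p = 0.1). Cyp4f14 had 20, 33 and 19 counts against 3, 7 and 8 and was called lower at -2.54 ± 0.45. Cyp4v3, a fatty acid hydroxylase whose human counterpart is mutated in a crystalline retinal dystrophy, had 60, 73 and 57 counts against 184, 290 and 242. It did not overlap between groups and was called higher at 1.33 ± 0.18 (edgeR adjusted p = 0.000197). Cyp4x1 had no count on day 0 and 3, 8 and 7 counts on day 21, and was not tested.

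The remaining families held few tested genes. In family 1, the targets of the dioxin receptor AHR, Cyp1a1 (chr9:57687928-57703824, plus strand) had 14, 30 and 25 counts on day 0 against 5, 7 and 11 on day 21, which was called lower at -2.13 ± 0.45 (edgeR adjusted p = 0.00316). Cyp1b1 (chr17:79701537-79715061, minus strand), which acts on oestrogens and retinoids outside the liver, had 400, 350 and 512 counts against 1221, 714 and 1223. It was called higher at 0.75 ± 0.27 (edgeR adjusted p = 0.0422), but day-21 replicate 2 (42.5 CPM) lay below day-0 replicate 3 (52.7 CPM). The call was lost when day-0 replicate 1 (0.72), day-0 replicate 2 (0.54), day-21 replicate 1 (0.54) or day-21 replicate 3 (0.67) was left out. The core of the AHR site, GCGTG or CACGC on the other strand, is shown in 1 window before each gene's RefSeq start. For Cyp1a1 that window lies inside the gene span given above, which is that of GENCODE. The core stood in 28.2% of all promoters in the table, counted singly. By member, with any promoter sufficing, it stood in 5 of 17 called lower, 3 of 6 called higher and 3 of 6 not called. These shares are in unlike units too.

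Cyp1a1, chr9:57697547-57697576: tcagataaggagGCGTGgccaacagacaca
Cyp1b1, chr17:79715120-79715149: cgtcccgcccctCACGCcccaccccctaag

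Cyp1b1 is printed on its own strand, which is the minus strand. Within each mouse the ratio of Cyp1b1 to Cyp1a1 counts was between 11.7 and 28.6 on day 0 and between 102 and 244 on day 21 (two-sided exact permutation p = 0.1). In family 3, the group of the main drug-oxidising enzymes of liver, 6 of 9 members had no count. Cyp3a13 had 2, 11 and 3 counts on day 0 against 26, 31 and 25 on day 21, and was called higher at 1.80 ± 0.53 (edgeR adjusted p = 0.0168). That call was lost when day-0 replicate 1 (1.43), day-0 replicate 3 (1.56), day-21 replicate 1 (1.77) or day-21 replicate 2 (1.76) was left out, and the value rose to 2.73 without day-0 replicate 2.

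Among sterol and bile acid genes, 3 of 5 tested were called lower and none higher. Cyp7b1 (chr3:18071950-18243338, minus strand), the oxysterol 7-alpha-hydroxylase, had 1661, 3864 and 2733 counts on day 0 against 391, 391 and 464 on day 21. The day-21 mice were nearly alike and well below the day-0 mice, with a log2 fold change of -3.27 ± 0.23 (edgeR adjusted p = 3.46e-06). Cyp51 (chr5:4081145-4104746, minus strand), the lanosterol demethylase of cholesterol synthesis, had 4100, 4581 and 3479 counts against 994, 1102 and 948. The spread within each group was small, and the log2 fold change was -2.56 ± 0.12 (edgeR adjusted p = 7.45e-07). Cyp27a1, the mitochondrial sterol 27-hydroxylase, had 279, 392 and 435 counts against 316, 388 and 363. In CPM the groups did not overlap, and it was called lower at -0.63 ± 0.17 (edgeR adjusted p = 0.0117), which was lost without day-0 replicate 3 (-0.44), with upper quartile scaling (-0.55) and with library size alone (-0.25). Cyp39a1, another oxysterol hydroxylase, had 91, 82 and 67 counts against 145, 206 and 182, and at 0.57 ± 0.19 it was just under the fold threshold. It was called higher with upper quartile scaling (0.66), library size alone (0.96), a filter at a mean of 50 counts (0.60) and without day-0 replicate 1 (0.70). Cyp46a1, the cholesterol 24-hydroxylase of brain, was not called at -1.23 ± 0.57. Cyp7a1, the rate-limiting enzyme of bile acid synthesis in liver, had no count in any mouse, and Cyp8b1 had at most 4.

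Cyp26b1 (chr6:84571414-84593908, minus strand), which degrades retinoic acid, had 442, 178 and 196 counts on day 0 against 67, 45 and 73 on day 21. Day-0 replicate 1 was the highest and the groups were apart, with a log2 fold change of -2.73 ± 0.40 (edgeR adjusted p = 0.000335), or -2.16 without that mouse. Of the enzymes that make retinoic acid, Aldh1a2 was called higher at 3.58 ± 0.26 and Aldh1a3 lower at -3.27 ± 0.93, the latter with groups that overlapped. Cyp2r1, a vitamin D 25-hydroxylase, had 11, 19 and 6 counts against 28, 28 and 23 and was not called (0.59 ± 0.42). Among members of less known substrate, Cyp2s1 had 256, 193 and 133 counts against 546, 672 and 483. It was called higher at 0.97 ± 0.22 (edgeR adjusted p = 0.00509), with no overlap. Cyp20a1 had 222, 279 and 182 counts against 380, 340 and 355, which overlapped in CPM and was not called (0.10 ± 0.15). Cyp2u1 had 58, 84 and 56 counts against 44, 94 and 70 and was not called (-0.51 ± 0.27), though its groups did not overlap in CPM, with day 21 lower.

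No gene of steroid hormone synthesis could be tested. Cyp11a1, which starts that pathway from cholesterol, had 0, 3 and 0 counts on day 0 against 0, 1 and 1 on day 21, and Cyp21a1, the 21-hydroxylase, had 0, 0 and 0 against 0, 9 and 2. Of the 7 adrenal cortex markers, Nr5a1 and Hsd3b1 were at 0 in all mice. Of the 3 tested, Scarb1, a lipoprotein receptor of many tissues, was called higher at 1.12, and Star (-0.33 ± 0.34) and Akr1b7 (-0.53 ± 0.43) were not called. The summed level of the 7 markers was 22.1 to 27.8 CPM on day 0 and 42.5 to 48.6 CPM on day 21. Scarb1 alone went from a mean of 17.9 to 38.9 CPM. Star went from 3.31 to 2.62 CPM and Akr1b7 from 4.10 to 2.82 CPM. Of the 7 hepatocyte markers, Cps1 was at 0, Alb (-2.82 ± 0.32) and Serpina1c (-3.90 ± 0.76) were called lower, Fgb was called higher (3.58 ± 0.65) and Ttr was not called. The summed level of that list was 48.3 to 177 CPM on day 0 and 153 to 179 CPM on day 21.

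Of the summed CPM of the members, Cyp4b1 took 26.2% on day 0 and 24.0% on day 21. The Cyp2j share was 25.7%, 22.0% and 21.5% on day 0 against 30.1%, 34.6% and 34.2% on day 21, and the groups did not overlap. This share rose although the summed CPM of the Cyp2j genes fell, from 2054 ± 162 on day 0 to 806 ± 91.9 on day 21 (SD, n = 3). The Cyp2e1 share was 11.3%, 18.3% and 16.3% on day 0 and 9.34%, 6.59% and 7.29% on day 21, again without overlap. The Cyp4a share went from 15.3% to 13.0% and overlapped. Cyp4f and Cyp1b1, both minor on day 0, went from 0.495% to 2.53% and from 0.45% to 2.76%. In summed CPM, the Cyp4f genes had 44.6 ± 3.68 on day 0 and 62.3 ± 1.81 on day 21, whereas the Cyp4a genes had 1381 ± 182 and 319.6 ± 136, and the Cyp2d genes 432.7 ± 46.4 and 92.2 ± 17.1 (SD, n = 3).

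**Figure D4:**
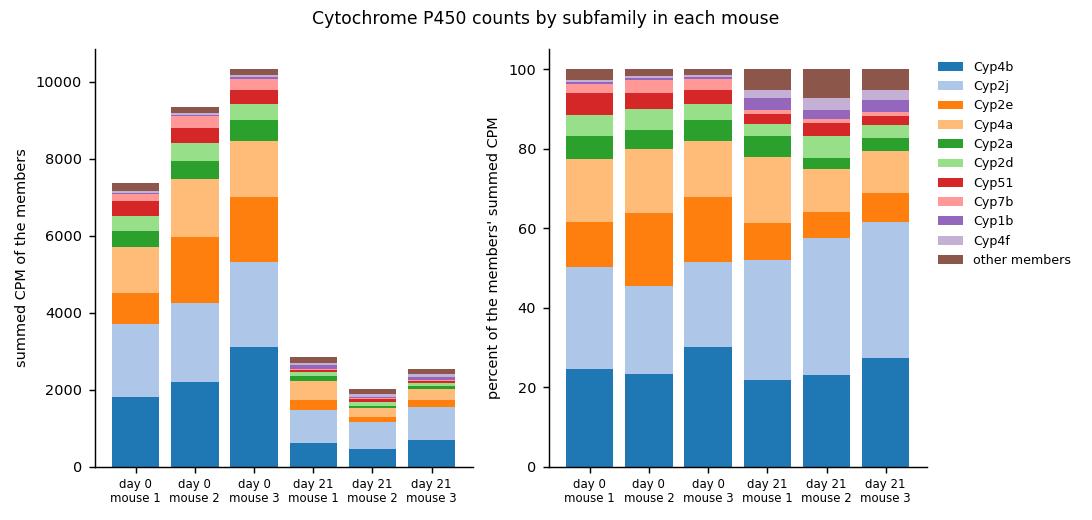
Stacked bars per mouse (x axis) of the members' summed CPM by subfamily (left, y axis in CPM) and as percent of the members' total in that mouse (right). The totals of the day-21 mice, 2836, 2026 and 2525 CPM, are below those of all day-0 mice, and Cyp2j is the widest band in each day-21 mouse on the right.

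By chromosome, the calls were not uniform. These are counts per chromosome and not per cluster. On chromosome 8, Cyp4v3 (from base 45304944) and Cyp4f18 (from base 71988482) lie far apart. On chromosome 17, Cyp1b1 and Cyp39a1 lie outside the Cyp4f cluster, which spans bases 32452723 to 32947402. The Cyp2j and Cyp4a genes of chromosome 4 form separate clusters. On chromosome 4, which holds the Cyp2j, Cyp4a and Cyp4b genes, 9 of 12 tested members were called lower and 1 higher. Of the 6 tested on chromosome 17, with most Cyp4f genes and Cyp1b1, 3 were called higher and 1 lower, and both tested on chromosome 8, Cyp4f18 and Cyp4v3, were called higher.

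Genes of the proteins that serve P450 enzymes were called in 1 direction where they were called. Over all genes tested, the same rule called 15.5% lower and 19.6% higher. Of 8 genes of redox partners and haem delivery, 4 were called lower and none higher (median log2 fold change -0.52). Por, the reductase that supplies electrons to microsomal P450s, was at -1.04 ± 0.13 (edgeR adjusted p = 0.000109), Cyb5a at -1.42 ± 0.14 and the mitochondrial ferredoxin Fdx1 at -1.15 ± 0.14. Of 13 genes of haem synthesis and breakdown, 7 were called lower and none higher. Hmox1 had the largest fall there at -2.46 ± 0.89, with overlapping groups and the high day-0 replicate 1 noted above. Alas1, which starts haem synthesis, was called lower at -0.79 ± 0.18.

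Of 32 tested receptors and factors known to control P450 genes, 14 were called lower and 4 higher, with a median of -0.25. The shares over all genes tested, 15.5% lower and 19.6% higher, apply to the counts of this paragraph too. Ppara had the largest fall (-1.97 ± 0.21, edgeR adjusted p = 4.23e-05) and Cux2, a female-biased repressor in liver, the largest rise (1.19 ± 0.36). Of 12 tested targets of PPARA outside the P450s, 11 were called lower and none higher, with a median of -1.62. Of the 2 AHR targets tested, Nqo1 (-0.32 ± 0.25) and Tiparp (-0.45 ± 0.15) were not called. Ahr itself was called higher at 0.82 ± 0.28. Among epoxide hydrolases and genes of eicosanoid metabolism, 4 of 8 were called higher and 1 lower, with the soluble epoxide hydrolase Ephx2 at -1.75 ± 0.16 and the phospholipase Pla2g4a at 1.47 ± 0.28. Of 9 flavin-containing and other oxidases, 2 were called higher and 6 lower.

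Of the 24 P450 genes called lower, 20 had a log2 fold change within the range of the 18 proximal tubule markers, which ran from -3.79 to -1.34 with a median of -2.02. Cyp2d12 fell more than any marker of that list, and Cyp27a1 and Cyp2c23 fell less. Cyp2j5 (-1.32 ± 0.12) also lay outside the range, but by less than its SE, beside Slc4a4 at -1.34 ± 0.16. Markers of other nephron parts were called lower too. This held for 3 of 5 in the thick ascending limb (1 higher) and 3 of 5 in the distal convoluted tubule (0 higher). It held for 5 of 9 in the collecting duct (0 higher) and 3 of 5 podocyte markers (0 higher). Slc12a1 (-1.65) of the thick ascending limb lay in the same range, as did Slc4a1 (-2.97), Slc26a4 (-1.71) and Aqp3 (-1.59) of the collecting duct. The part of any of these markers in the fall of each P450 gene was not tested.

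**Figure D5:**
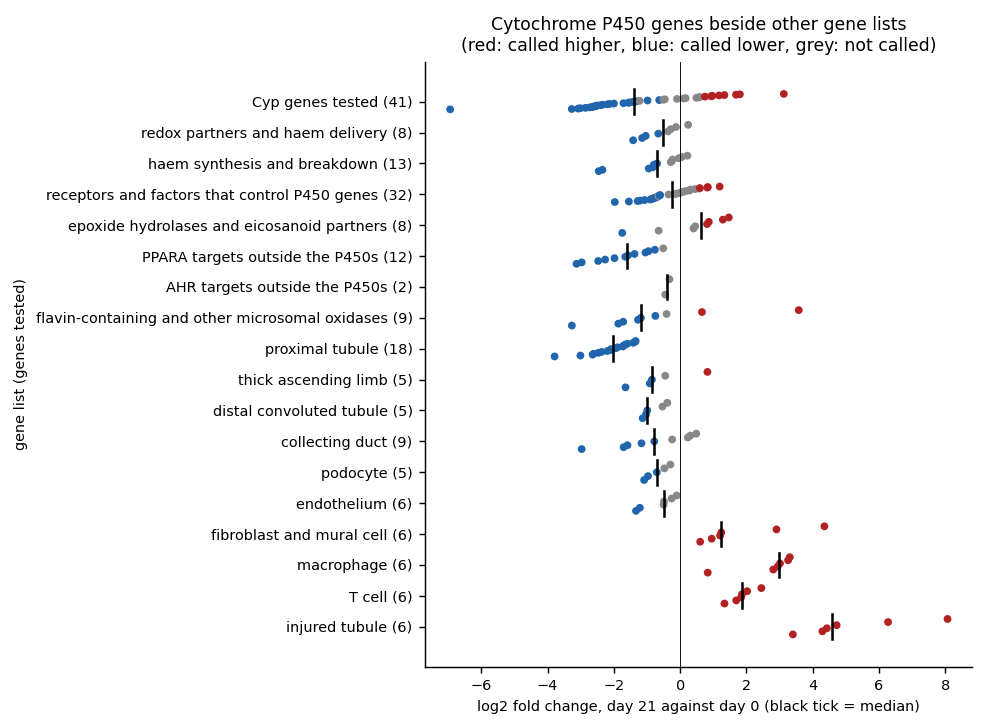
Log2 fold change, day 21 against day 0 (x axis), of the 41 tested P450 genes and of the genes of 17 other lists (y axis, number tested in brackets), with 1 point per gene and a black tick at the median. The P450 median of -1.39 lies between those of the redox partners (-0.52) and the proximal tubule markers (-2.02), and the P450 points reach on both sides of 0.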

How the data were processed

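Kidney mRNA was sequenced as paired-end reads from 6 mice. The authors deposited raw counts per gene for each mouse, with no normalization; the submitters' processing notes name TopHat and mm10, and the counting program and its strand setting are not given in the sources used here. Identifiers are those of GENCODE M21 (GRCm38), which gave symbols, exons and positions. Rows were filtered (filterByExpr, minimum count 10, minimum total 15), scaled by TMM and compared in R 4.3.3 with edgeR 4.0.16 (quasi-likelihood test, no replicate block), with Benjamini-Hochberg adjustment over 16592 genes. Genes were called at a fold over 1.5 with an adjusted p under 0.05, the thresholds of the study. No batch or cage is named, and p-values measure the spread between these mice. A library's detection floor was 3 counts (0.179 to 0.309 CPM, for counting error only). On simulated data, an edgeR adjusted p under 0.05, with no fold threshold, was reached by 174 of 200 genes changed 3-fold, beside 16 unchanged genes. It was reached by 15 of 200 genes changed 1.5-fold, beside 5 unchanged genes. limma-voom 3.58.1 and DESeq2 1.42.0, other scalings and filters, other thresholds, a replicate block, each mouse left out and libraries without the 20 highest or the mitochondrially encoded genes were alternatives. Near-identical members were also summed, which was chosen after seeing the data. Members, role groups and lists were chosen with earlier results of these data known; genes named with values in every mouse are the listed representatives of each role and, per subfamily of 3 or more tested members, the largest rise, the largest fall and the highest day-0 level. The 5 within-mouse ratios were chosen after their values were seen.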

Additional observations from a re-analysis of the deposited data

How the results depend on the processing

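With each mouse left out in turn, the members called higher ranged from 6 to 7, those called lower from 20 to 24, and the median log2 fold change from -1.55 to -1.18. The replicate numbers pair no mice: deviations of same-numbered mice correlated at -0.019, 0.165 and 0.0896, and a replicate block called 8 higher and 23 lower, with a median of -1.43. The median moved to -1.02 with library size alone, -1.03 with no filter, -1.11 with near-identical members summed and -0.57 over the 28 members with under 10% shared words, 13 of which were called lower. With library size alone the median of all genes was 0.42. Requiring a fold over 2 with an adjusted p under 0.01 left 4 members called higher and 19 lower. Signs turned for uncalled genes only: with 1 mouse left out, Cyp20a1 ranged from -0.022 (without day-21 replicate 1) to 0.19 and was -0.00011 without day-0 replicate 3, Cyp2d22 from -0.23 to 0.16 (without day-0 replicate 1), and Cyp2j9 from -0.061 (without day-0 replicate 2) to 0.42. With library size alone Cyp2d22 was at 0.29. At the main thresholds, 26 of the 32 calls held under every other scaling, filter, tool, block and left-out mouse run for that gene; the 6 that did not were Cyp1b1, Cyp3a13, Cyp27a1, Cyp2a5, Cyp4a32 and Cyp4a12a. The cause of these changes was not tested.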

Other observations

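Beside the protein-coding members, 31 rows of other gene types carry a Cyp symbol. Of these, 20 had no count and 0 were tested. The highest, the pseudogene Cyp4f41-ps, had 5, 5 and 1 counts on day 0 against 11, 9 and 7 on day 21.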
